A study of Mus musculus with 9 samples.

Results

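The 10 genes described here take fatty acids into the cell, store them in lipid droplets, release them again or export sterol. They were chosen by symbol from the 46517 genes of the expression table. Cd36, Slc27a2, Slc27a4, Fabp5 and Lpl serve uptake, Plin2 and Hilpda belong to the droplet, Pnpla2 to lipolysis, and Abca1 and Abcg1 to efflux. Their RNA was compared between sorted neutrophils of 3 compartments, the bone marrow, blood and tumor of C57BL/6 mice, 27 days after KPC-derived luciferase-expressing pancreatic tumor cells had been placed in the pancreas (orthotopic transplantation, OT). Each compartment had 3 libraries, each from RNA of pooled OT mice, and the labels call the bone marrow cells Ly6G.hi and the blood and tumor cells Ly6G+. In every compartment the sorted cells were CD45+ and Ly6G+Ly6C+, and negative for the dye Dapi and for CD3, B220 and NK1.1. All compartments came from mice that carried tumors of 1 transplanted cell line, so neither healthy mice nor spontaneous tumors were compared. The study asked how neutrophils of the tumor differ from those of the bone marrow and blood, with hypoxia and HIF-1α as its main interest.

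A cell obtains fatty acids from albumin or from lipoprotein triglyceride, which lipoprotein lipase cleaves outside the cell, and membrane proteins such as CD36 and the fatty acid transport proteins help them in. Inside, they are esterified to triglyceride and kept in lipid droplets coated by perilipins, from which adipose triglyceride lipase (ATGL, the product of Pnpla2) starts their release. Neutrophils are known to build droplets during stress and infection, and hypoxia is known to favor droplet storage in many cell types.

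Between 4580807 and 7949367 reads per library were recovered from the values. The log2 FPKM values (log2 of fragments per kilobase of gene, relative to library size) are those of the authors, and RPM below are recovered reads per 1000000 of the library size as the authors scaled it. For 9 of the 10 genes the length behind the FPKM was the whole genomic span, so a gene with long introns has a low FPKM. The limma test was run on 7794 genes, those that exceeded a log2 FPKM of 0 in 3 or more libraries. It took in 6 of the 10 genes. Hilpda passed through its 3 tumor libraries and 1 of blood, and would not have been tested without the tumor libraries. Its place among the genes called higher in tumor thus follows from the filter, and its calls add no support to the counts below. Cd36, Slc27a2, Lpl and Abca1 had no library over 0. They were therefore tested on recovered reads with limma-voom, which models read counts by weighting their log values, over the 17714 genes for which some library held 5 reads or more. The p-values carry Benjamini-Hochberg adjustment and compare compartments with 3 libraries each, from 3 independent experiments. The paper describes the compartments as taken from the same mice, and these tests left such pairing out. The 8 neutrophil markers, Ly6g and S100a8 among them, summed to between 37741 and 39501 RPM in bone marrow, between 32035 and 34060.5 in blood, and between 6996 and 9042 in tumor, and each had reads in every compartment. Tumor libraries also held reads of other cells, shown in the plot of marker lists. Tumor epithelium markers summed to 2649 to 5061 RPM in tumor and 10.1 to 172 elsewhere, and fibroblast markers to 970.3 to 1114 RPM against at most 12.5. The part of these cells in the results below was not tested. In bulk samples, fewer cells of a type and less RNA per cell cannot be told apart.

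**Figure D1:**
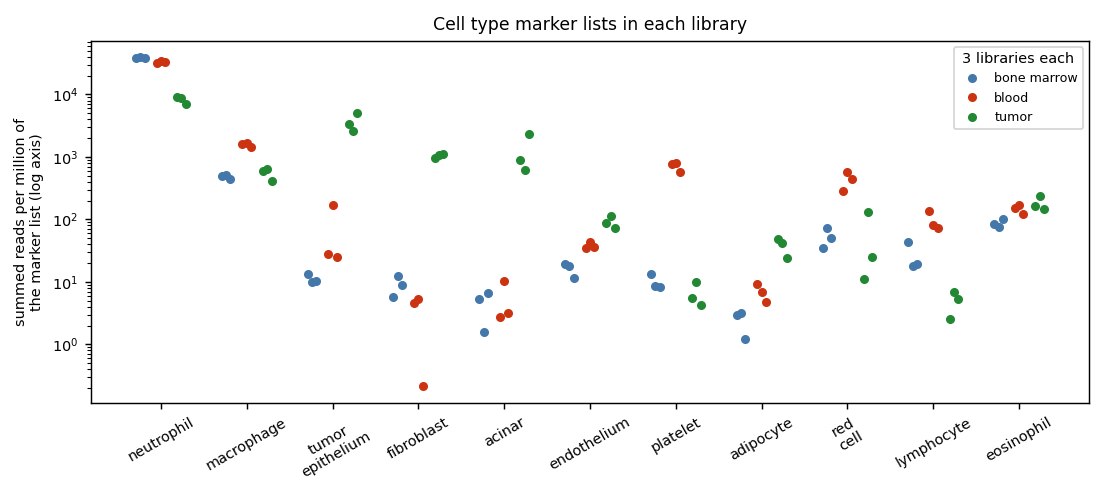
Summed RPM of 11 lists of cell type markers (y axis, log scale) in each library, with 3 points per compartment. Epithelium, fibroblast and acinar markers were highest in the tumor libraries, platelet markers were highest in blood at 567 to 793 RPM, and neutrophil markers had the highest sum in every library.

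The droplet gene Hilpda showed the widest difference of the 10 genes. It was almost without reads in bone marrow and blood and was among the most abundant of the 10 genes in tumor, and Plin2 in tumor was several times its level elsewhere. The fatty acid transporter Cd36, lipoprotein lipase and the sterol exporter Abca1 were also higher in tumor, at low levels. Pnpla2 and Fabp5 had less RNA in tumor than in blood, and Slc27a4 was lower in tumor and blood than in bone marrow.

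**Figure D2:**
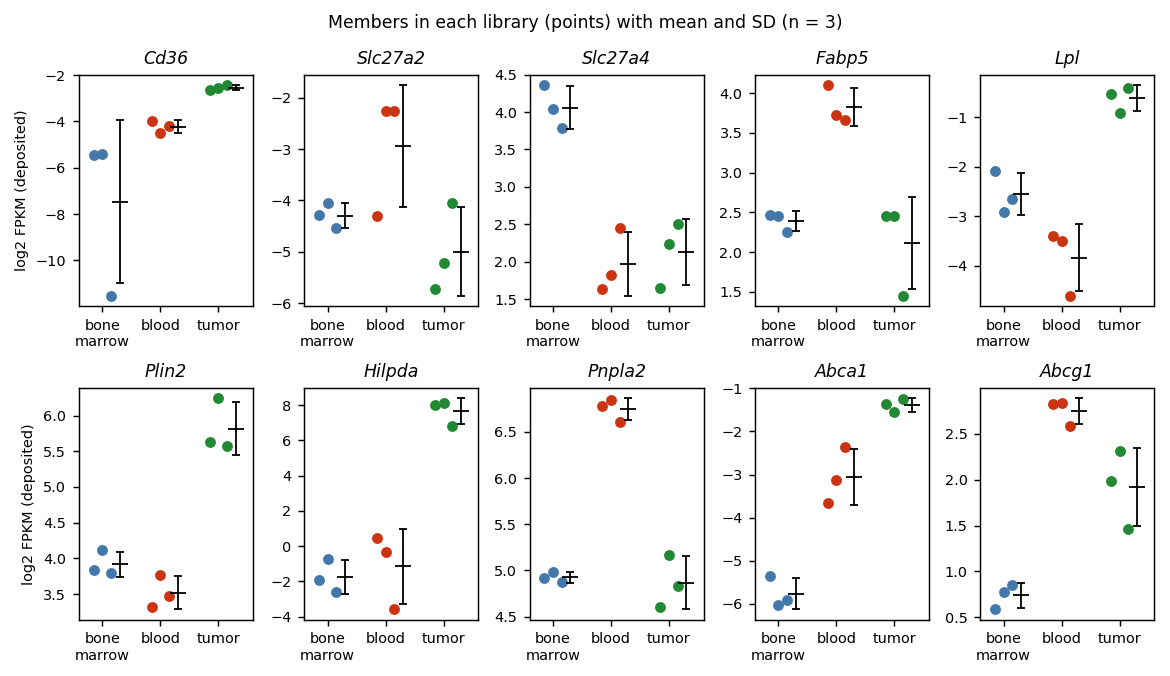
Deposited log2 FPKM (y axis, a scale of its own in each panel) of the 10 genes in each of the 9 libraries, with the mean and SD (n = 3) beside the points of each compartment. Hilpda, Plin2, Cd36, Lpl and Abca1 lay above all bone marrow and blood points in the 3 tumor libraries, while Pnpla2, Fabp5 and Abcg1 were highest in blood and Slc27a4 in bone marrow. The lowest Cd36 point, at -11.53, is a library with 0 reads.

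In tumor against blood, 2 of the 6 genes tested were higher (Hilpda and Plin2) and 3 were lower (Fabp5, Pnpla2 and Abcg1), beside 28.1% of the 7794 genes tested called higher and 34.5% called lower. Against bone marrow, 3 were higher in tumor (Hilpda, Plin2 and Abcg1) and 1 was lower (Slc27a4), with 22.4% and 32.9% of all genes. In blood against bone marrow, 3 were higher (Abcg1, Fabp5 and Pnpla2) and 1 was lower (Slc27a4), with 20.6% and 23.6% of all genes. Calls were thus common throughout the table, and the counts alone do not set these genes apart. Among the 4 genes tested with limma-voom, 3 were higher in tumor than in blood and 1 was lower, where 33.1% and 21.9% of 17714 genes were called. Against bone marrow 3 were higher and 0 lower in tumor, beside 29.3% and 21.0% of all genes, and the fourth, Slc27a2, had an adjusted p of 0.490. In blood against bone marrow 2 were higher and 0 lower, beside 13.8% and 16.4%, and Lpl and Slc27a2 had adjusted p-values of 0.0978 and 0.101. Over all 10 genes the median log2 difference of group means was 0.92 for tumor against blood and 1.54 against bone marrow, where the median of the 17714 genes was 0.50 and 0.29. For blood against bone marrow it was 1.40, where all genes had a median of 0.00. Of the 10 genes, 6 were above 0 in each tumor comparison, beside 59.1% (against blood) and 56.9% (against bone marrow) of the 17714 genes. For blood against bone marrow 7 were above 0, beside 45.2%. Both tumor comparisons use the same tumor libraries.

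**Figure D3:**
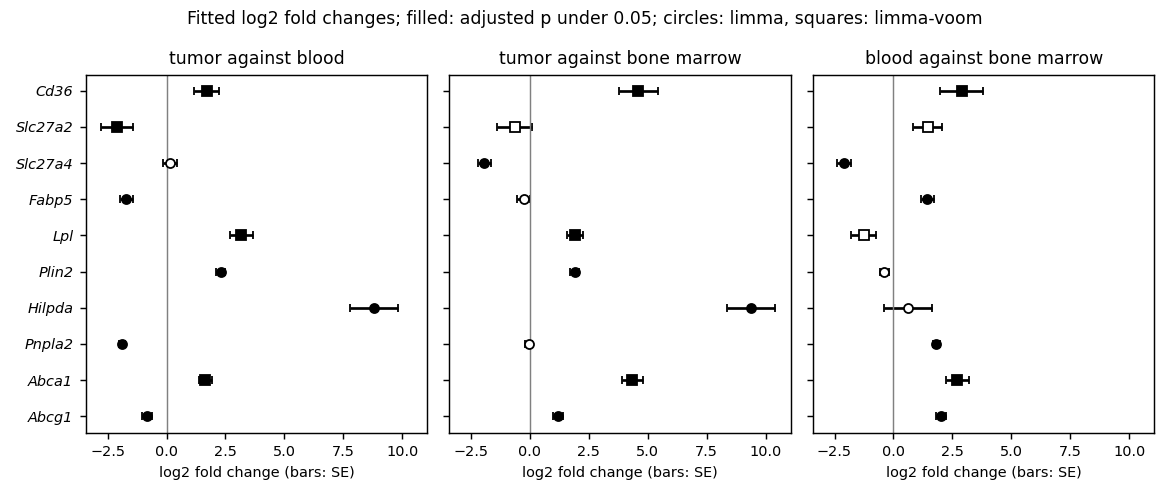
Fitted log2 fold changes (x axis) with their standard errors (bars) for the 10 genes (y axis) in the 3 comparisons. Circles are from limma on log2 FPKM, squares from limma-voom on reads, and filled symbols had an adjusted p under 0.05. Hilpda lies farthest from 0, at 8.79 and 9.39 in the tumor comparisons.

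Hilpda (ENSMUSG00000043421.8, chromosome 6, 29272488 to 29275446, plus strand, GRCm38) encodes the hypoxia-inducible lipid droplet-associated protein, an inhibitor of ATGL. The series carries HIF-1α as its theme, so the RefSeq promoter windows, from 250 bases before to 50 after each annotated start (GRCm38.p6), were searched for the core of the hypoxia response element, ACGTG or GCGTG on either strand. ACGTG was present in 19.6% and GCGTG in 32.4% of the 32851 promoters of the table, and 43.8% held at least 1 of them. Of the 7 genes with a promoter in the table, 4 held a match, and 30 bases around the matches that involve ACGTG are shown, on the strand of the gene and with the matched letters in capitals.

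Hilpda, chr6:29272571-29272600, match starting 43 bases before the second start: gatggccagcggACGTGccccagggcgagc

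Plin2, chr4:86670046-86670075, match starting 4 bases before the start: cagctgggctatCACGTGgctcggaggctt

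Abca1, chr4:53160025-53160054, match starting 147 bases before the start: gggccatgtctcCACGTGctttctgctgag

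Slc27a2, chr2:126552803-126552832, match starting 209 bases before the start: ttgaccttttcaACGTGggctgtttgcgct

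In Plin2 and Abca1 the 6 letters CACGTG read ACGTG on both strands, so each counts as 1 place. Hilpda also held GCGTG 111 and 8 bases before its second start, and Plin2 and Slc27a2 held GCGTG on the other strand, 86 and 228 bases before the start. Slc27a4, Cd36 and Pnpla2 had no match in this window. Hilpda, Plin2 and Abca1 were higher in tumor against both blood and bone marrow, whereas Slc27a2, which holds both motifs, was not. Cd36 was higher in tumor without a match. A match is a description of the letters and shows no binding.

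Hilpda had 5, 10 and 3 reads in the bone marrow libraries and 16, 13 and 1 in blood, against 4778, 6214 and 2631 in tumor. In RPM this was 0.748, 1.77 and 0.452 in bone marrow, 4.05, 2.33 and 0.213 in blood, and 770.0, 822 and 331 in tumor. The lowest tumor library was thus 81.8 times the highest blood library and 187 times the highest bone marrow library. The log2 fold change was 8.79 ± 1.02 (SE) against blood (adjusted p = 0.000175, limma) and 9.39 ± 1.02 against bone marrow (adjusted p = 0.000154). Because so few reads lie beneath these folds, their size is loose, and the alternatives gave log2 values between 6.92 and 9.60 against blood. Blood and bone marrow overlapped (log2 fold change 0.60 ± 1.02, adjusted p = 0.672). Among the tumor libraries Hilpda was lowest in replicate 3. There the epithelium markers were highest (5061 RPM, against 3333 and 2649 in replicates 1 and 2), as were the acinar markers (2370.3 RPM, against 882 and 609). The fibroblast markers were also highest there (1114 RPM, against 970.3 and 1069), and the neutrophil markers lowest (6996 RPM, against 9042 and 8718). Lowest there as well were the macrophage (408 RPM, against 585 and 635), endothelium (73.0, against 87.8 and 115) and fat cell markers (24.2, against 48.2 and 42.1). Plin2 was also lowest in that library (1029 RPM), while Cd36 (19.9), Lpl (20.4) and Abca1 (54.6) were highest there. The part of other cells in the Hilpda reads was not tested.

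Plin2 (ENSMUSG00000028494.11, chromosome 4, 86648386 to 86670060, minus strand) encodes perilipin 2, the droplet coat protein of most cells outside fat tissue. Its log2 FPKM was 3.84, 4.12 and 3.79 in bone marrow, 3.32, 3.77 and 3.47 in blood, and 5.63, 6.24 and 5.57 in tumor. Every tumor library lay above every other library. Plin2 was 4.88-fold higher in tumor than in blood (log2 fold change 2.29 ± 0.20 (SE), adjusted p = 4.44e-05, limma) and 3.72-fold higher than in bone marrow (1.89 ± 0.20, adjusted p = 0.000145). Behind the tumor values stood 6638, 12365 and 8173 reads, so counting error was small. Blood lay slightly below bone marrow, and this difference did not pass the test (-0.39 ± 0.20, adjusted p = 0.155). For each Plin2 read the tumor libraries held 0.720, 0.503 and 0.322 Hilpda reads, and the other libraries at most 0.0187, a ratio that does not depend on the scaling between libraries.

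Pnpla2 (ENSMUSG00000025509.14, chromosome 7, 141455198 to 141460743, plus strand) encodes ATGL, which removes the first fatty acid of a stored triglyceride. Its log2 FPKM was 4.92, 4.98 and 4.87 in bone marrow, 6.78, 6.84 and 6.61 in blood, and 4.60, 5.17 and 4.83 in tumor. Blood stood apart as the high compartment. Pnpla2 was 3.68-fold lower in tumor than in blood (log2 fold change -1.88 ± 0.14, adjusted p = 2.07e-05, limma) and 3.53-fold higher in blood than in bone marrow (1.82 ± 0.14, adjusted p = 6.86e-05). Tumor and bone marrow overlapped (-0.06 ± 0.14, adjusted p = 0.750), and this comparison depended on the scaling. When plain library totals replaced the scaling of the authors, the median of the genes tested moved by 0.42 in both tumor comparisons and Pnpla2 then passed the test with the higher level in tumor (0.39, adjusted p = 0.0305), as it did with quantile normalization (0.33, adjusted p = 0.0406).

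The regulators of ATGL differed from the enzyme itself. G0s2, an inhibitor of ATGL, had 571, 622 and 703 reads in bone marrow, 144, 283 and 194 in blood, and 9435, 7414 and 5933 in tumor. It was higher in tumor than in blood (log2 fold change 4.61, adjusted p = 5.97e-06, limma) and than in bone marrow (3.38, adjusted p = 2.48e-05). Per Pnpla2 read there were 11.3, 4.93 and 4.75 G0s2 reads in the tumor libraries, 0.510, 0.628 and 0.653 in bone marrow, and 0.0598, 0.0799 and 0.0765 in blood. The 3 compartments were therefore fully separate in this ratio, in the order tumor, bone marrow, blood. Hilpda, the other inhibitor, gave 5.74, 4.13 and 2.10 reads per Pnpla2 read in tumor and at most 0.0101 elsewhere. Abhd5, the coactivator of ATGL, was highest in bone marrow (158, 176 and 143 RPM), with 37.2, 39.9 and 35.0 RPM in blood and 34.3, 37.8 and 37.4 RPM in tumor. Tumor against bone marrow gave a log2 fold change of -2.12 (adjusted p = 1.05e-05), and tumor against blood -0.03 (adjusted p = 0.850), and with plain library totals the second became 0.42 (adjusted p = 0.0198). Of the 7 further genes of lipolysis listed, 4 were tested, and beside G0s2 and Abhd5 these were Lipe and Lipa. Lipe, hormone-sensitive lipase, was lower in tumor against blood (-1.56, adjusted p = 1.41e-05) and bone marrow (-0.59, adjusted p = 0.00217), the second without a call under plain totals (-0.14, adjusted p = 0.319). Lipa, lysosomal acid lipase, exceeded its bone marrow level in tumor (0.50, adjusted p = 0.0263) and had an adjusted p of 0.0841 against blood (-0.35).

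**Figure D4:**
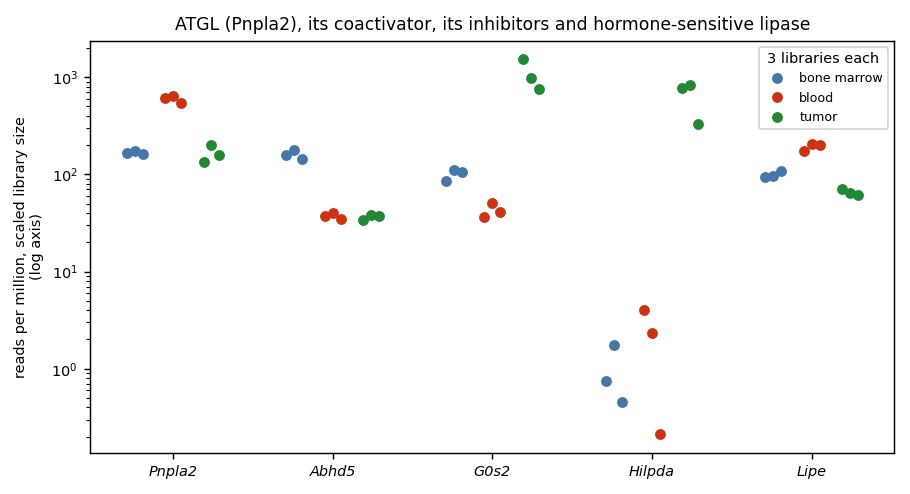
RPM at the library scaling of the authors (y axis, log scale) of Pnpla2, its coactivator Abhd5, its inhibitors G0s2 and Hilpda, and Lipe, with 3 points per compartment. G0s2 (747 to 1520.4) and Hilpda (331 to 822) lay above Pnpla2 (134 to 199) in the tumor libraries, and far below it in blood.

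Cd36 (ENSMUSG00000002944.14, chromosome 5, 17781690 to 17888801, minus strand) encodes a scavenger receptor that takes up fatty acids and oxidized lipoproteins. It had 16, 14 and 0 reads in bone marrow, 27, 26 and 27 in blood, and 106, 136 and 158 in tumor. The library with 0 reads allows up to 3 reads, or 0.452 RPM. In RPM, tumor stood at 17.1, 18.0 and 19.9, blood at 6.83, 4.66 and 5.76, and bone marrow at 2.39, 2.47 and 0, without overlap between compartments. The log2 fold change was 1.70 ± 0.52 (SE) for tumor against blood (adjusted p = 0.0132, limma-voom) and 4.60 ± 0.83 against bone marrow (adjusted p = 0.000374). The bone marrow library without reads widened the second, which was 2.87 when bone marrow replicate 3 was left out (adjusted p = 0.000235). Blood against bone marrow fell from 2.90 ± 0.91 (adjusted p = 0.0270) to 1.18 (adjusted p = 0.108) in the same way, and it was also lost without blood replicate 1 (2.78, adjusted p = 0.0615) or blood replicate 3 (2.88, adjusted p = 0.0531). Without blood replicate 2 the call against blood was lost as well (1.54, adjusted p = 0.0697). Limma on the log values of the same genes gave 1.68 against blood with an adjusted p of 0.361. CD36 is also found on platelets, endothelium and fat cells. The 7 platelet markers summed to 567 to 793 RPM in blood, 8.13 to 13.6 in bone marrow and 4.28 to 9.92 in tumor. The 6 endothelium markers summed to 73.0 to 115 RPM in tumor, 35.2 to 42.8 in blood and 11.7 to 19.4 in bone marrow. Fat cell markers summed to 24.2 to 48.2 RPM in tumor, 4.69 to 9.36 in blood and 1.20 to 3.18 in bone marrow. The part of platelets, endothelium and fat cells in the result was not tested.

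Lpl (ENSMUSG00000015568.14, chromosome 8, 68880491 to 68907448, plus strand) encodes lipoprotein lipase. It had 42, 20 and 28 reads in bone marrow, 10, 13 and 5 in blood, and 116, 108 and 162 in tumor. The tumor libraries, at 18.7, 14.3 and 20.4 RPM, lay above all others, of which the highest had 6.28. Lpl was higher in tumor than in blood (log2 fold change 3.17 ± 0.48 (SE), adjusted p = 8.29e-05, limma-voom) and than in bone marrow (1.92 ± 0.34, adjusted p = 0.000351), and both calls held under each of the 13 alternatives run. Fat cells and macrophages are known sources of lipoprotein lipase. The 6 fat cell markers summed to 24.2 to 48.2 RPM in tumor, 4.69 to 9.36 in blood and 1.20 to 3.18 in bone marrow. Lep was at 0 in every library, Adipoq at 0 in every blood library, and Cfd and Plin1 at 0 in bone marrow. Retn, at 9.11, 6.80 and 4.69 RPM, made up nearly all of the blood sum. It went against the sum, with a mean of 2.28 RPM in tumor. The 10 macrophage markers summed to 408 to 635 RPM in tumor, 1468 to 1653 in blood and 446 to 512 in bone marrow. Csf1r alone had a mean of 1179 RPM in blood and 204 in tumor. C1qb went the other way, at 5.07 RPM in blood and 10.3 in tumor. Of the 7 markers tested, 1 was called lower in tumor than in blood (Csf1r), 1 higher (C1qb) and 5 neither (limma). The part of fat cells and macrophages in the result was not tested.

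The fatty acid transport proteins behaved differently. Slc27a4 (FATP4, ENSMUSG00000059316.2, chromosome 2, 29802634 to 29817522, plus strand), a transporter with acyl-CoA synthetase activity, had log2 FPKM values of 4.36, 4.04 and 3.78 in bone marrow, 1.64, 1.82 and 2.45 in blood, and 1.65, 2.24 and 2.51 in tumor. Bone marrow was separate from both others, which overlapped. Slc27a4 was 3.82-fold lower in tumor than in bone marrow (log2 fold change -1.93 ± 0.29 (SE), adjusted p = 0.000802, limma) and 4.27-fold lower in blood than in bone marrow (-2.09 ± 0.29, adjusted p = 0.000908). Tumor against blood gave 0.16 ± 0.29 (adjusted p = 0.650). Slc27a2 (FATP2, ENSMUSG00000027359.15, chromosome 2, 126552407 to 126588243, plus strand), known for arachidonic acid uptake in suppressive neutrophils, had 12, 12 and 10 reads in bone marrow, 7, 42 and 35 in blood, and 4, 7 and 17 in tumor. Blood replicate 1, with 1.77 RPM, lay within the range of bone marrow and tumor (0.645 to 2.14 RPM), and the other blood libraries had 7.52 and 7.46. Tumor against blood gave a log2 fold change of -2.09 ± 0.67 (adjusted p = 0.0169, limma-voom), and tumor against bone marrow -0.64 ± 0.74 (adjusted p = 0.490). The call against blood was lost without blood replicate 2 or 3 or tumor replicate 1 or 2 (adjusted p = 0.0714, 0.0605, 0.0592 and 0.0566).

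Fabp5 (ENSMUSG00000027533.10, chromosome 3, 10012548 to 10016607, plus strand) encodes a cytosolic fatty acid-binding protein. Its log2 FPKM was 2.47, 2.45 and 2.25 in bone marrow, 4.10, 3.72 and 3.66 in blood, and 2.45, 2.45 and 1.45 in tumor. As with Pnpla2, blood was the high compartment and tumor overlapped bone marrow. Fabp5 was 3.27-fold lower in tumor than in blood (log2 fold change -1.71 ± 0.27 (SE), adjusted p = 0.000887, limma) and 2.71-fold higher in blood than in bone marrow (1.44 ± 0.27, adjusted p = 0.00390). Tumor against bone marrow gave -0.27 ± 0.27 (adjusted p = 0.433), with the sign turned under plain library totals (0.18, adjusted p = 0.568) and without tumor replicate 3 (0.06, adjusted p = 0.757).

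The 2 sterol exporters did not follow the same order. Abca1 (ENSMUSG00000015243.4, chromosome 4, 53030787 to 53159895, minus strand), which loads lipid-poor apolipoprotein with cholesterol, had 21, 11 and 14 reads in bone marrow, 40, 82 and 117 in blood, and 309, 334 and 434 in tumor. The compartments did not overlap, and rose in the order bone marrow, blood, tumor. Its log2 fold change was 4.34 ± 0.45 (SE) for tumor against bone marrow (adjusted p = 2.98e-06, limma-voom), 1.64 ± 0.27 against blood (adjusted p = 0.000161) and 2.70 ± 0.49 for blood against bone marrow (adjusted p = 0.000792). Abcg1 (ENSMUSG00000024030.6, chromosome 17, 31057675 to 31117988, plus strand), which passes cholesterol on to HDL, had log2 FPKM values of 0.59, 0.78 and 0.85 in bone marrow, 2.82, 2.83 and 2.58 in blood, and 1.99, 2.31 and 1.46 in tumor. Here tumor lay between the others without overlap. Against bone marrow, Abcg1 was 2.26-fold higher in tumor (1.18 ± 0.21, adjusted p = 0.00216, limma) and 4.01-fold higher in blood than in bone marrow (2.00 ± 0.21, adjusted p = 0.000266). Its 1.77-fold lower level in tumor than in blood (-0.83 ± 0.21, adjusted p = 0.010) was not called under plain library totals (-0.38, adjusted p = 0.117).

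To compare levels between genes, recovered reads were divided by the summed exon length of each gene (FPKM per exon length, mean ± SD, n = 3). In tumor, Hilpda (581 ± 244) and Plin2 (354 ± 96.5) had the highest levels, and their libraries overlapped. Pnpla2 (54.2 ± 10.9), Abcg1 (30.9 ± 8.80) and Slc27a4 (15.2 ± 4.35) followed, each separate from the next. Fabp5 (5.17 ± 1.79), Cd36 (5.10 ± 0.400) and Abca1 (4.78 ± 0.506) overlapped, and Lpl (1.70 ± 0.301) and Slc27a2 (0.329 ± 0.212) were lowest. In blood the order was led by Pnpla2 (197 ± 16.0), Plin2 (71.5 ± 11.5) and Abcg1 (53.5 ± 5.16), all separate from each other. Fabp5 (16.3 ± 2.80) and Slc27a4 (13.6 ± 4.23) overlapped next, while Hilpda (1.99 ± 1.74), Cd36 (1.60 ± 0.303), Abca1 (1.60 ± 0.733) and Slc27a2 (1.49 ± 0.880) formed an overlapping group above Lpl (0.188 ± 0.0757). In bone marrow Plin2 (93.7 ± 12) stood first, before Slc27a4 (57.1 ± 11.5) and Pnpla2 (55.7 ± 2.18), which overlapped. Abcg1 (13.3 ± 1.18) and Fabp5 (5.96 ± 0.486) came next, and the other 5 genes had means below 1, with Abca1 last (0.231 ± 0.0626).

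Further genes of the same pathways were counted from lists. Plain totals raised the median of all genes tested by 0.42 in both tumor comparisons, and the share of all genes called under them is not given. Counts of a list under plain totals therefore show only that its calls changed with the scaling, and describe no trait of the list. Slc27a1, Angptl4, Fitm2, Fasn and Fads1 exceeded the filter only in the tumor libraries, so a gene among these 5 could hardly enter the test without being higher in tumor, and their calls add no support to the counts of their lists. Among 12 other genes of fatty acid uptake and binding, 3 were tested, of which Ffar2 (log2 fold change 2.93, adjusted p = 0.000175, limma) and Slc27a1 (5.99, adjusted p = 5.13e-05) were higher in tumor than in blood and Got2 was lower (-0.74, adjusted p = 0.000360), without a call for Got2 under plain totals. Ffar2 is a receptor for short-chain fatty acids and Slc27a1 another transport protein, which had 1, 3 and 3 reads in blood and 169, 158 and 400 in tumor, highest in tumor replicate 3. Against bone marrow Slc27a1 was higher in tumor (4.77, adjusted p = 0.000200), Got2 was lower (-0.93, adjusted p = 0.000135) and Ffar2 had a log2 fold change of -0.19 (adjusted p = 0.666). Cav1, caveolin, had 0 reads in all bone marrow and blood libraries and 163, 256 and 309 in tumor. Of 6 acyl-CoA synthetases, 2 were tested. Acsl5 was higher in tumor than in blood (0.58, adjusted p = 0.0126), and Acsl1 was lower in tumor than in bone marrow (-1.24, adjusted p = 0.000879).

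Of 11 genes around lipoprotein lipase and its receptors, 3 were tested. Angptl4, an inhibitor of lipoprotein lipase, was higher in tumor than in blood (log2 fold change 8.35, adjusted p = 0.000236, limma) and bone marrow (5.74, adjusted p = 0.00204), with 0.240 ± 0.254 RPM (SD, n = 3) in blood, 1.27 ± 0.955 in bone marrow and 55.7 ± 8.52 in tumor. Lipg, endothelial lipase, had adjusted p-values of 0.138 and 0.968, and under plain totals it was called higher in tumor than in blood (1.21, adjusted p = 0.0292).

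Among 12 other droplet coat and assembly genes, 6 were tested, of which 3 were higher in tumor than in blood and 1 was lower. Plin3, a perilipin that moves between cytosol and droplet, was higher in tumor than in blood (log2 fold change 1.49, adjusted p = 1.68e-05, limma) and lower than in bone marrow (-0.33, adjusted p = 0.0310), the second without a call under plain totals (0.12, adjusted p = 0.427). Rab18 (0.80, adjusted p = 0.00143) and Fitm2 (2.63, adjusted p = 0.00902) were also higher than in blood. Plin5 was lower (-3.09, adjusted p = 0.0149), at 2.66 ± 2.18 RPM in tumor and 15.4 ± 5.36 in blood. It exceeded the filter in 3 libraries each of bone marrow and blood and in 0 of tumor, so its lower call follows in part from the filter. Against bone marrow Fitm2 was higher (3.29, adjusted p = 0.00373) and Bscl2, seipin, was lower (-1.66, adjusted p = 0.00385). The list had 1 gene higher and 2 lower in that comparison, and 3 higher and 1 lower under plain totals, so its direction there depended on the scaling.

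Of 9 genes of triglyceride and cholesteryl ester synthesis, 7 were tested, 3 of them higher and 1 lower in tumor than in blood. The 2 enzymes of the last step went apart, since Dgat1 was higher in tumor than in blood (log2 fold change 0.85, adjusted p = 0.00195, limma) and Dgat2 was lower (-1.14, adjusted p = 0.00135). Against bone marrow 3 were higher and 2 lower, with Dgat2 lower (-0.92, adjusted p = 0.00485), Lpin2 higher (2.22, adjusted p = 0.000278) and Agpat2 lower (-2.57, adjusted p = 0.000112). Lpin2 exceeded the filter in 3 libraries each of blood and tumor and in 0 of bone marrow, so its higher call follows in part from the filter. Soat1 had log2 fold changes of -0.05 and 0.05 in the 2 tumor comparisons (adjusted p = 0.781 and 0.779), which plain totals moved to 0.40 and 0.51 (adjusted p = 0.0136 and 0.00522).

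For fatty acid synthesis, 4 of the 6 genes tested were higher in tumor than in blood and 0 were lower. The 4 included Fasn and Fads1, which passed the filter through tumor alone. They also included Scd1, which exceeded the filter in 3 libraries of tumor, 2 of blood and 0 of bone marrow. Scd1 would not have been tested without the tumor libraries, so its higher calls in both tumor comparisons add no support to these counts. Scd2, a stearoyl-CoA desaturase, had log2 fold changes of 4.64 (adjusted p = 8.50e-05, limma) and 3.44 (adjusted p = 0.000488) in tumor against blood and bone marrow, and Acly, which supplies acetyl-CoA, had 0.04 (adjusted p = 0.811) and -0.65 (adjusted p = 0.00187). Scd2 stood at 8.56 ± 4.64 RPM in blood, 18.8 ± 7.21 in bone marrow and 201 ± 63.5 in tumor. Against bone marrow 3 of the 6 genes were higher in tumor and 1 was lower. Of 9 genes of fatty acid oxidation tested, 3 were higher in tumor than in blood, Acadl among them, and Cpt1a, which brings fatty acids into mitochondria, was lower (-0.67, adjusted p = 0.00935). Against bone marrow 0 were higher and 2 lower. Under plain totals, which raised the tumor level of genes in general, 0 were lower in either comparison and more were higher. The calls of this group thus depended on the scaling. Of 4 sterol efflux and LXR genes tested, all 4 were lower in tumor than in blood (Abca7, Apoe, Mylip and Nr1h2), and under plain totals 1 was. Abca7, a transporter related to Abca1, stood at 319.8 ± 34.1 RPM in blood, 296 ± 38.3 in bone marrow and 74.0 ± 12.8 in tumor. None of 5 PPAR factors and coactivators passed the filter. Pparg, which drives fat storage genes, had 6, 5 and 12 reads in bone marrow, 0, 14 and 2 in blood, and 173, 211 and 373 in tumor, highest again in tumor replicate 3 (log2 fold change 5.84, adjusted p = 4.89e-05, against blood, limma-voom).

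For the 4 tested genes with the widest range between compartments, the 3 genes whose log2 FPKM followed them most closely over the 9 libraries were listed by Pearson's r, as a description only, since every gene that separates the compartments in the same order scores high. For Hilpda these were Tmbim1 (0.991), Eif3a (0.989) and Gla (0.988). For Plin2 they were Tnf (0.993), Fam20c (0.992) and Isy1 (0.991). Slc27a4 was followed by Yaf2 (0.995), Appbp2 (0.988) and Ckap4 (0.987), and Abcg1 by Spata13 and Swap70 (0.983 each) and Gbp7 (0.982).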

How the data were processed

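RNA from 9 pools of sorted neutrophils was sequenced after SMARTSeq v2, a protocol that does not mark strand. The submitters' processing notes name STAR 2.5.2b, featureCounts 1.5.0, edgeR 3.8.6 and GRCm38. The deposited values are log2 FPKM, calculated by the authors, with a constant equal to 0.143 to 0.287 reads added. Dividing by the size of 1 read gave whole reads for all 46517 genes (tolerance 0.01 reads). Read totals ranged from 4580807 to 7949367, and reads per gene carry counting error and possible PCR duplicates. Library sizes had been scaled by 0.796 to 0.881 in bone marrow and blood and by 1.08 to 1.22 in tumor. Groups follow the labels. The 7794 genes that exceeded a log2 FPKM of 0 in 3 or more libraries (331 of them with under 5 reads in every library) were fitted with limma 3.58.1 in R 4.3.3, with 1 coefficient per compartment, an intensity trend and Benjamini-Hochberg adjustment at 0.05. For the 4 genes outside this filter limma-voom on recovered reads was used, a choice made after seeing the data. Scripts were tested on simulated data. The genes and lists were chosen with earlier results of these data known. The text names the 10 genes, up to 4 genes per list by reads together with those called against the list's majority, and the 3 genes most like each of 4 of the 10. Fitm2 and Angptl4 fall outside this rule and were chosen after their values were seen. Some genes of the lists are not reported here by name. Gene positions and lengths are from GENCODE M21, promoters from RefSeq (GRCm38.p6).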

Additional observations from a re-analysis of the deposited data

How the results depend on the processing

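The alternatives were no filter, a stricter filter, a filter on reads, pseudocounts of 1 and 0.1, quantile normalization, plain library totals, no trend, limma-voom, the replicate block, only the 2 compartments compared, and each library left out; for the 4 genes tested on reads, the last, plain totals and the block were repeated in limma-voom, chosen after seeing the data. For the 6 genes in limma, 350 of 360 values kept direction and call, and for the other 4 genes 141 of 156 did. With the filter on reads, which tests all 10 genes, 8 were called in tumor against blood and 7 against bone marrow, and with limma-voom 9 and 7. Of all 17714 genes it called 33.1% higher and 21.9% lower in tumor against blood. Against bone marrow it called 29.3% higher and 21.0% lower. Calls were thus common in that fit, and the counts of the 10 genes were not tested against these shares. Signs turned for Slc27a4 in tumor against blood without tumor replicate 3 (-0.03, within a range from -0.03 to 0.40 over the libraries left out), for Pnpla2 in tumor against bone marrow under quantile normalization (0.33), plain totals (0.39) and without tumor replicate 1 (0.07, range -0.21 to 0.07), for Fabp5 there under plain totals (0.18) and without tumor replicate 3 (0.06, range -0.44 to 0.06), and for Hilpda in blood against bone marrow without blood replicate 1 (-0.20, range -0.20 to 1.81). The cause was not tested. In limma with no filter the calls were lost for Abcg1 (adjusted p = 0.0505) and Slc27a2 (0.117) in tumor against blood and for Cd36 in all 3 comparisons (0.882, 0.132 and 0.492); for Cd36 and Slc27a2 this changes the test as well as the filter. In limma with the filter on reads Cd36 lost 2 of the 3 (0.361 against blood, 0.141 for blood against bone marrow) and kept tumor against bone marrow (0.0260). Same-numbered libraries did not deviate together (correlations between -0.07 and 0.11), and differently numbered libraries spanned a similar range (-0.1 to 0.11). The paper describes bone marrow and blood neutrophils as coming from the same mice as the tumor neutrophils. With 3 libraries per compartment these correlations cannot decide whether libraries of the same number share mice, and the main fit left such pairing out. With the replicate block, the 6 genes in limma kept their calls in both tumor comparisons. In blood against bone marrow Plin2 was then called lower (-0.39, adjusted p = 0.0237, limma). The median over the 10 genes for tumor against blood was 1.36 under plain totals, 0.71 under quantile normalization and 0.68 without blood replicate 1. Depth limits Hilpda, Cd36, Slc27a2 and Lpl, which had fewer than 50 reads in every bone marrow and blood library.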
